A study of Mus musculus with 36 samples.

Results

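Hair shaft and inner root sheath genes encode the structural proteins of the growing hair and the factors that switch them on. They were followed here in the descendants of 2 hair follicle stem cell populations of mouse tail skin through a first and a second wound. The members were fixed by name, not by any measured value: every gene whose symbol begins with Krtap and a number, 26 hair follicle keratins and hair genes named one by one, and no others. Of these, 31 were listed among the 23903 genes of both count tables combined, 23 in the table of Lrig1 GL cells (20181 genes) and 31 in that of Lgr5 GL cells (22587 genes). Krt85 was in neither table. The 31 comprise 7 inner root sheath keratins, 13 hair shaft keratins, 6 keratin-associated proteins, the companion layer keratin Krt75, trichohyalin (Tchh) and the transcription factors Gata3, Hoxc13 and Msx2. The 8 members listed for Lgr5 GL cells alone were Krt31, Krt33a, Krt34, Krt82, Krtap4-9, Krtap7-1, Krtap12-1 and Krtap16-1.

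A hair grows from matrix cells at the base of the follicle, which sort themselves into concentric layers as they move up. The central layers form the shaft, where hair keratins assemble into filaments that keratin-associated proteins cross-link. The layers around it form the inner root sheath, which moulds the shaft with its own keratins and trichohyalin and is lost higher up, while the companion layer lies between this sheath and the outer root sheath. These genes are active in growing follicles and silent in most resting ones. Krt36 and Krt84 are exceptions in the tail, since they are also known from the scale regions of the tail epidermis between follicles, and Gata3 is also made outside the follicle.

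Mice carried either an Lrig1- or an Lgr5-driven EGFP-ires-CreERT2 allele together with a Rosa26-fl/STOP/fl-tdTomato reporter. A single topical dose of hydroxytamoxifen on the tail skin marked the cells that expressed the driver at that time, and all cells derived from them, with tdTomato (genetic labelling, GL). Adult skin was taken uninjured (0w), then 1w, 2w, 4w and 8w from a first full-thickness wound (pw1), and finally 1w from a second wound that overlapped it and was made at 8w (1w pw2). Small numbers of tdTomato+ epidermal cells, sorted from a zone with wound bed and distal follicles, went into full-length poly(A) RNA-seq, with 3 libraries per time point and population and 36 in all. The sort was for tdTomato alone, so a library holds whatever cell types the labelled cells had become.

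The smallest and largest libraries held 765252 and 3365666 counts for Lrig1 GL, and 1297798 and 6960537 counts for Lgr5 GL cells, and the gene Gm12415 took 12 to 52.1% of the counts in the Lgr5 GL libraries. At 0w, 6 bulge markers summed to 15400 to 21800 CPM (counts relative to each library's total, scaled by TMM) in Lgr5 GL and to 5600 to 9790 in Lrig1 GL cells, and 4 upper follicle markers to 277 to 3800 and to 6140 to 9600. Lgr5 itself stood at 321 to 499 CPM in the 0w libraries of Lgr5 GL cells, against 51.3 to 264 CPM in those of Lrig1 GL cells. A figure legend of the study counts the replicates of these data as mice, while the labels tie no library to a mouse, so p-values measure the spread between the 3 libraries of a group as they were labelled. Libraries are called 1, 2 and 3 where the labels number them and a, b and c where the count columns could not be matched to a labelled number.

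In Lgr5 GL cells the summed level of the group was lowest 1w after the first wound and highest at 4w pw1. The summed level of the 31 members was 1100, 384 and 510 CPM in the 0w libraries a, b and c and 71.1, 139 and 179 CPM in the 3 libraries of 1w pw1. It was 345, 600 and 536 CPM at 2w pw1, and 897, 5510 and 2270 CPM at 4w pw1. It then stood at 546, 601 and 500 CPM at 8w pw1 and at 467, 333 and 584 CPM at 1w pw2. Every 1w pw1 library thus lay below every other Lgr5 GL library, while the lowest 4w pw1 library lay below the highest 0w library. In bulk RNA, fewer cells that make a gene and less of its RNA per cell cannot be told apart, here and throughout.

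**Figure D1:**
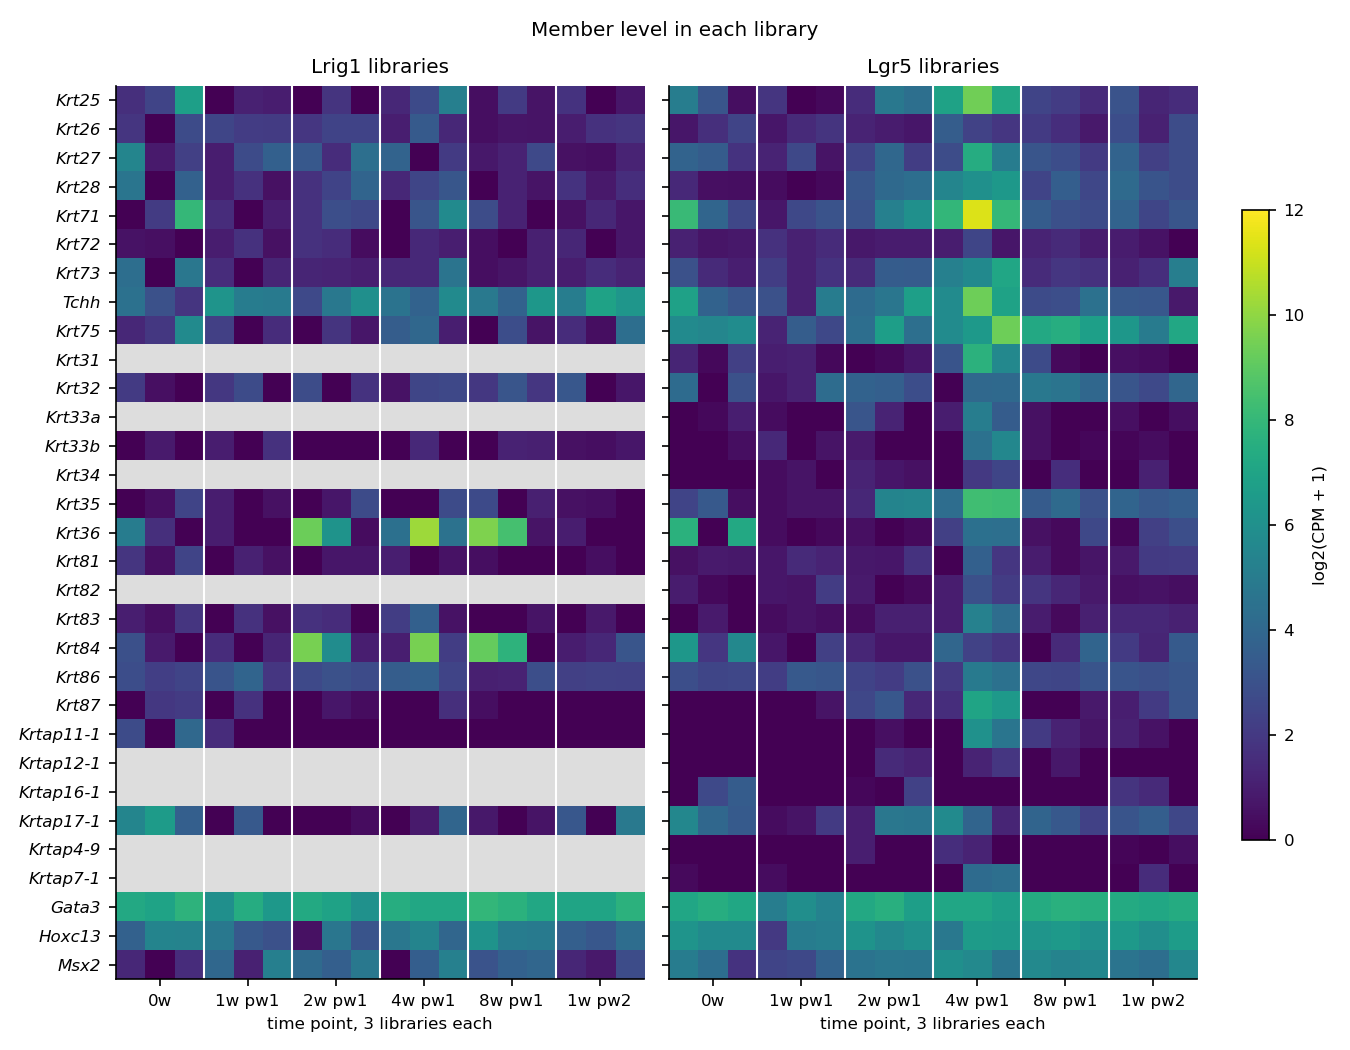
Level of each of the 31 listed members in each of the 36 libraries, as log2(CPM + 1), with 3 libraries per time point from left to right and grey for the 8 members not listed for Lrig1 GL cells. In Lgr5 GL cells the 4w pw1 libraries b and c hold most hair shaft keratins, and in Lrig1 GL cells Krt36 and Krt84 are bright in a few libraries only.

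Split by layer, the inner root sheath keratins were the class with the highest sum in each 4w pw1 library. They summed to 335, 37.4 and 14.1 CPM at 0w, to 11.4, 14.2 and 15 CPM at 1w pw1 and to 459, 3560 and 656 CPM at 4w pw1, all 3 of these above the highest 0w library. The hair shaft keratins without Krt36 and Krt84 summed to 30.9, 16.4 and 17.9 CPM at 0w and, overlapping these, to 9.46, 15.3 and 33.1 CPM at 1w pw1. At 4w pw1 they summed to 34.0, 814 and 559 CPM, so that library a held far less of these keratins than b and c. Neither layer reached such sums in Lrig1 GL cells. Their inner root sheath keratins were highest before injury (90.8, 8.93 and 407 CPM at 0w) and reached at most 125 CPM later, and their shaft keratins without Krt36 and Krt84 stayed between 5.26 and 30.2 CPM in all 18 libraries.

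**Figure D2:**
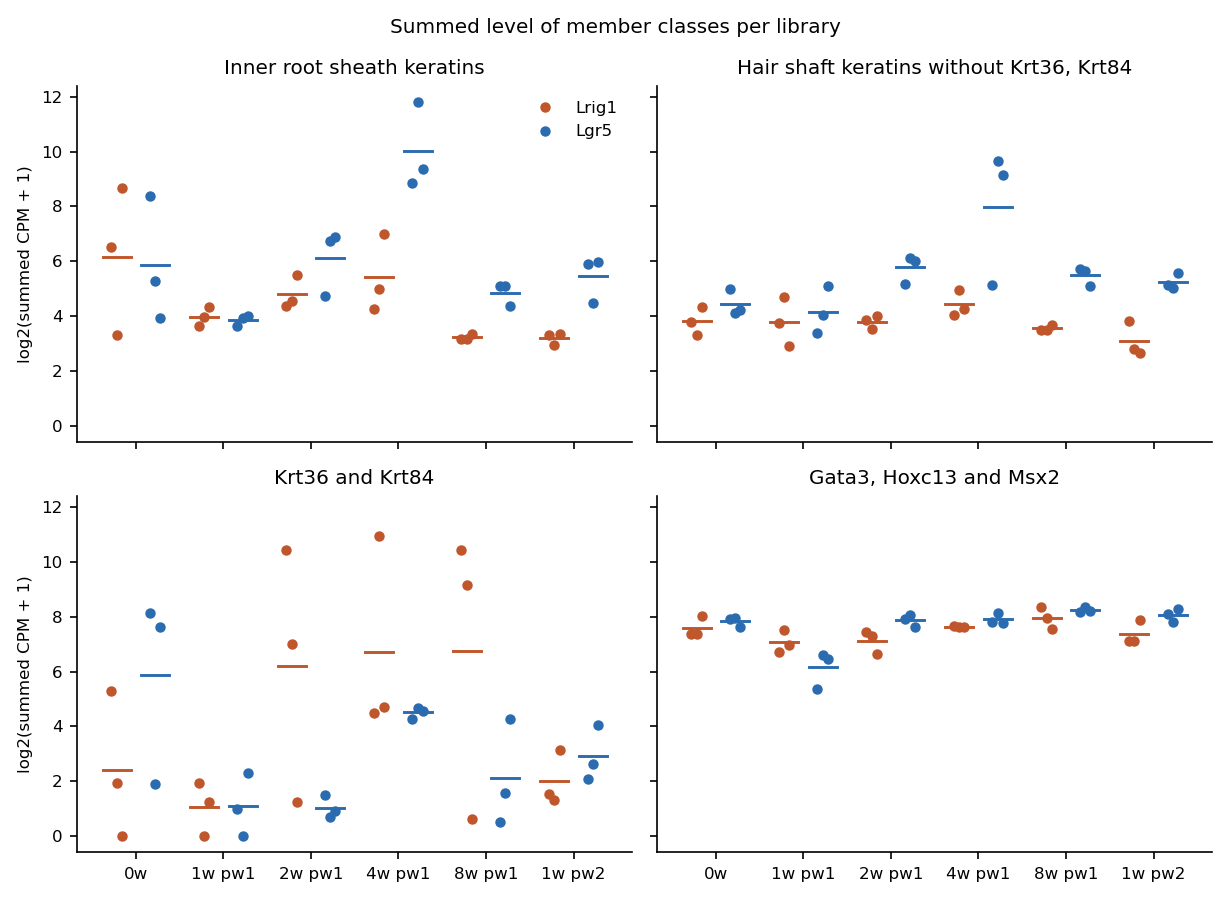
Summed level of 4 classes of members per library, as log2(summed CPM + 1), at each time point, with each dot a library and each bar the mean of 3 libraries on that scale. Inner root sheath keratins of Lgr5 GL cells reach 459 to 3560 CPM at 4w pw1, Krt36 and Krt84 together reach 574 to 1960 CPM in 4 Lrig1 GL libraries, and the sum of Gata3, Hoxc13 and Msx2 is lowest at 1w pw1 in Lgr5 GL cells.

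Levels between genes were compared per kilobase of exon. Over the 18 Lgr5 GL libraries the mean was highest for Krt71 (90.6 CPM per kb), then Gata3 (33.8), Krt75 (30.5), Krt25 (29.2) and Hoxc13 (25.2). In Lrig1 GL cells it was highest for Krt36 (105 CPM per kb), Krt84 (49.3) and Gata3 (37.3). These means rest on few libraries for the keratins: library b of 4w pw1 alone gave 73.0% of the summed Krt71 CPM in Lgr5 GL cells, whereas no library gave more than 8.03% of that of Gata3.

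The question of the time course was whether a member changed at any point after the first or second wound. It was tested with edgeR's quasi-likelihood method, all 5 later time points against 0w in 1 test, with p-values adjusted by Benjamini-Hochberg over every gene in the fit, and a call needed an adjusted p under 0.05 and, at 1 or more of these time points, a change of over 1 on the log2 scale in either direction. In Lgr5 GL cells 24 of the 31 members passed the filter on low counts, and 10 were called, against 1.13% of the 18025 genes tested. They were the inner root sheath keratins Krt28 (adjusted p = 0.00125), Krt25 (0.00677), Krt71 (0.00747) and Krt73 (0.0354), the shaft keratins Krt31, Krt35 and Krt87 (each 0.00747) and Krt36 (0.0166), the shaft protein Krtap11-1 (0.0252), and Gata3 (0.0121). Krt75 (adjusted p = 0.0522), Krt27 (0.0578), Tchh (0.0659) and Krt33a (0.0676) lay just past the threshold, and Krt84 (0.111), Msx2 (0.192) and Hoxc13 (0.406) further out. The 7 members that did not pass the filter were Krt33b, Krt34, Krt72, Krt83, Krtap4-9, Krtap7-1 and Krtap12-1, and since the filter can keep a gene through the time point where it is high, the 24 do not stand for the 31.

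The test without surrogate variables was the main one, and the calls depend on that choice. With 4 surrogate variables estimated from the same libraries, 0 of the 18025 genes and so 0 members were called by edgeR's quasi-likelihood test, 16 of the 24 members had an unadjusted p under 0.05, and the lowest adjusted p of a member was 0.101, for Krt28. No single contrast of Lgr5 GL cells had a member called with them either. The likelihood ratio test called 17 members and DESeq2 15. The share of all genes was not computed for these tests, here and throughout, nor for the unadjusted p-values with surrogate variables. Without library b of 4w pw1, 5 members were called (Gata3, Krt28, Krt35, Krt36 and Krt87), without library a of 4w pw1, 17, and without the 4w pw1 time point, 3 (Gata3, Krt28 and Krt36).

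**Figure D3:**
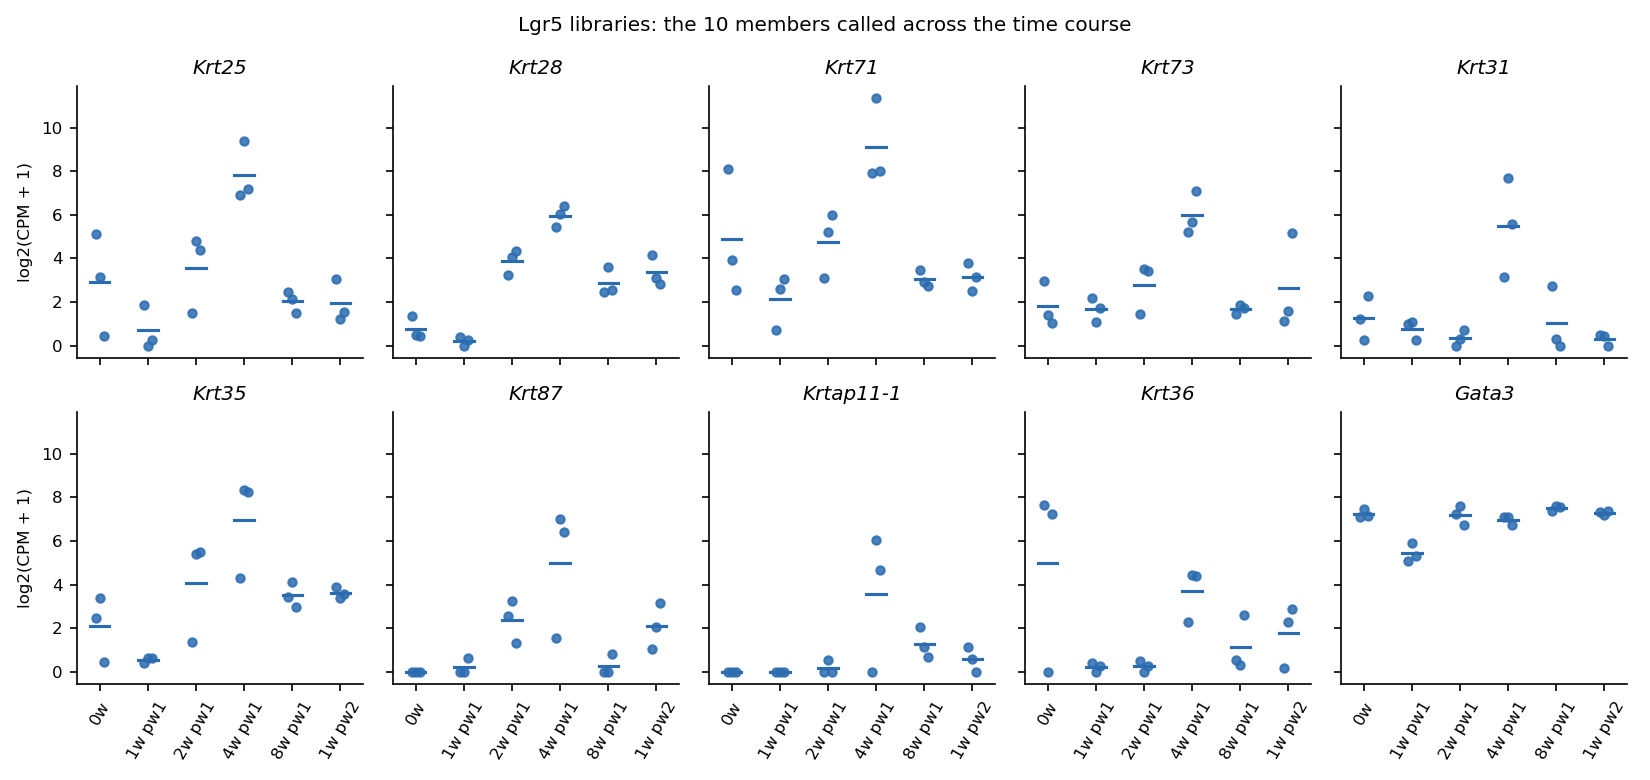
Level of the 10 members called across the time course in each Lgr5 GL library, as log2(CPM + 1), with each dot a library and each bar the mean of 3 libraries on that scale. Krt28 has its 3 highest libraries at 4w pw1 and its 3 lowest at 1w pw1, Krt87 and Krtap11-1 are at 0 in every 0w library, and Gata3 dips at 1w pw1 alone.

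Krt28, a type I keratin of the inner root sheath, rose with the lowest adjusted p of all members. It stood at 1.59, 0.415 and 0.345 CPM in the 0w libraries and at 0.326, 0 and 0.181 CPM at 1w pw1. It was at 8.32, 15.9 and 19.1 CPM at 2w pw1 and at 42.8, 63.7 and 84.0 CPM at 4w pw1. Every 4w pw1 library was above every other library, and every library from 2w pw1 on was above every 0w library. At 4w pw1 Krt28 was called higher than at 0w (log2 fold change 6.25, SE 0.79, adjusted p = 0.0034 by edgeR), with 321 counts against 10, a pooled ratio of 79.4 (95% interval 42.6 to 167, counting error only). At 4w pw1, 2 of the 24 tested members were called higher, against 0.0499% of all genes, and 7 of 24 had 3 libraries above all 3 of 0w, against 6.62% of all genes. This call of Krt28 held without any single library, and was lost with surrogate variables (log2 fold change 6.18, adjusted p = 0.123).

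Krt87, a type II keratin of the hair shaft, was the other member called at 4w pw1. It had no count in any 0w library and 0, 0 and 0.542 CPM at 1w pw1. It was at 4.80, 8.59 and 1.52 CPM at 2w pw1 and at 1.94, 129 and 85.4 CPM at 4w pw1. Its 4w pw1 mean was at least 92.8-fold higher than the 0w level, taking 3 counts in each 0w library as the floor (a mean of 0.779 CPM). Its adjusted p was 0.0352 by edgeR. Library a of 4w pw1 lay below 2 of the 2w pw1 libraries, and the call was lost without any 1 of the 3 libraries of 0w, without library b or c of 4w pw1 and without library 2 or 3 of 1w pw2. Of the 50-base stretches of Krt87, 17.05% also occur in another gene, most often Krt81, so its separate level is uncertain.

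None of the other inner root sheath keratins was called at 4w pw1 against 0w. Krt71, a type II keratin of all sheath layers, was at 278, 14.3 and 4.83 CPM at 0w and at 242, 2600 and 256 CPM at 4w pw1, so the groups overlapped. Krt25, a type I sheath keratin, was at 33.4, 7.89 and 0.345 CPM at 0w and at 121, 665 and 146 CPM at 4w pw1 without overlap (log2 fold change 4.47, SE 1.15, adjusted p = 0.149). Krt73 was at 6.81, 1.66 and 1.03 CPM at 0w and at 36, 50.7 and 135 CPM at 4w pw1, again without overlap (log2 fold change 4.51, SE 1.15, adjusted p = 0.145). Library a of 0w was the highest of its group for all of Krt25, Krt28, Krt71, Krt73 and Tchh. Krt27 reached 172 CPM in library b of 4w pw1 and 5.83 to 31.6 in a and c, Krt26 stayed at or below 10.7 CPM, and Krt72 at or below 4.61 CPM in all 18 libraries. Tchh, which hardens the sheath by cross-linking its filaments, had the order of libraries seen for Krt71 and Krt25, with 116, 12.5 and 7.93 CPM at 0w and 53.5, 645 and 121 CPM at 4w pw1. Krt73 was highest in library c of 4w pw1 instead.

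The hair shaft keratins separated library a of 4w pw1 from b and c. Krt35, an early shaft keratin, was at 4.54, 9.34 and 0.345 CPM at 0w and at 18.5, 320 and 303 CPM at 4w pw1 (log2 fold change 5.44, SE 1.12, adjusted p = 0.0676). Krt31, a cortex keratin, was at 1.36, 0.207 and 3.79 CPM at 0w and at 7.78, 207 and 47.1 CPM at 4w pw1 (log2 fold change 5.66, SE 1.47, adjusted p = 0.151). Neither pair of groups overlapped, but in both cases library a held far less than b and c. Krtap11-1, a keratin-associated protein of the cortex, had no count at 0w or 1w pw1 and was at 0, 65.8 and 24.2 CPM at 4w pw1, a mean at least 38.5-fold above the same floor with library a at 0 (adjusted p = 0.111). The same split held in members that were not tested: Krt33b was at 0, 21.4 and 45.7 CPM, Krt83 at 0.972, 37.7 and 18.8 CPM and Krtap7-1 at 0, 17.2 and 20.2 CPM in a, b and c of 4w pw1, and none of these passed 2 CPM in any other Lgr5 GL library. Krt32, a cuticle keratin, differed from these, at 0, 15.5 and 16.1 CPM at 4w pw1 and 15.1 to 26.5 CPM at 8w pw1. Krtap17-1 went the other way. Of all Lgr5 GL libraries, library a of 4w pw1 held its highest level, 21.5% of its summed CPM. The keratin-associated proteins together summed to 54.5, 99.3 and 48.4 CPM in a, b and c of 4w pw1, so as a class they did not show the split. Krt31, Krt33a, Krt33b, Krt34, Krt81, Krt83 and Krt86 share 17.8 to 43.26% of their 50-base stretches with a relative, so their separate levels are uncertain. The sheath keratins Krt25 and Krt27 share 10.88 and 11.13% of theirs, most often with each other, so this limit holds for them to a lesser degree.

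The 3 libraries of 4w pw1 differed in other ways too. Library a had 52.1% of its counts in Gm12415, against 28.5 and 30.6% in b and c, and the lowest scaled total of the 18. In all 3 the bulge keratin Krt15 was low, at 2680, 4500 and 2910 CPM against 16700, 18400 and 13500 CPM at 0w (log2 fold change -2.27, SE 0.29, adjusted p = 0.0034). Of the 6 bulge markers Krt15 alone was called, their sum was 15400 to 21800 CPM at 0w and 3860 to 6410 CPM at 4w pw1, and none was at 0. The sum of 4 markers of differentiated interfollicular epidermis was 333, 3100 and 729 CPM in a, b and c, that of 5 cycling genes 89.5, 251 and 333 CPM, and that of the melanocyte markers at most 24.2 CPM. The part of these differences in the levels of the hair genes was not tested.

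**Figure D4:**
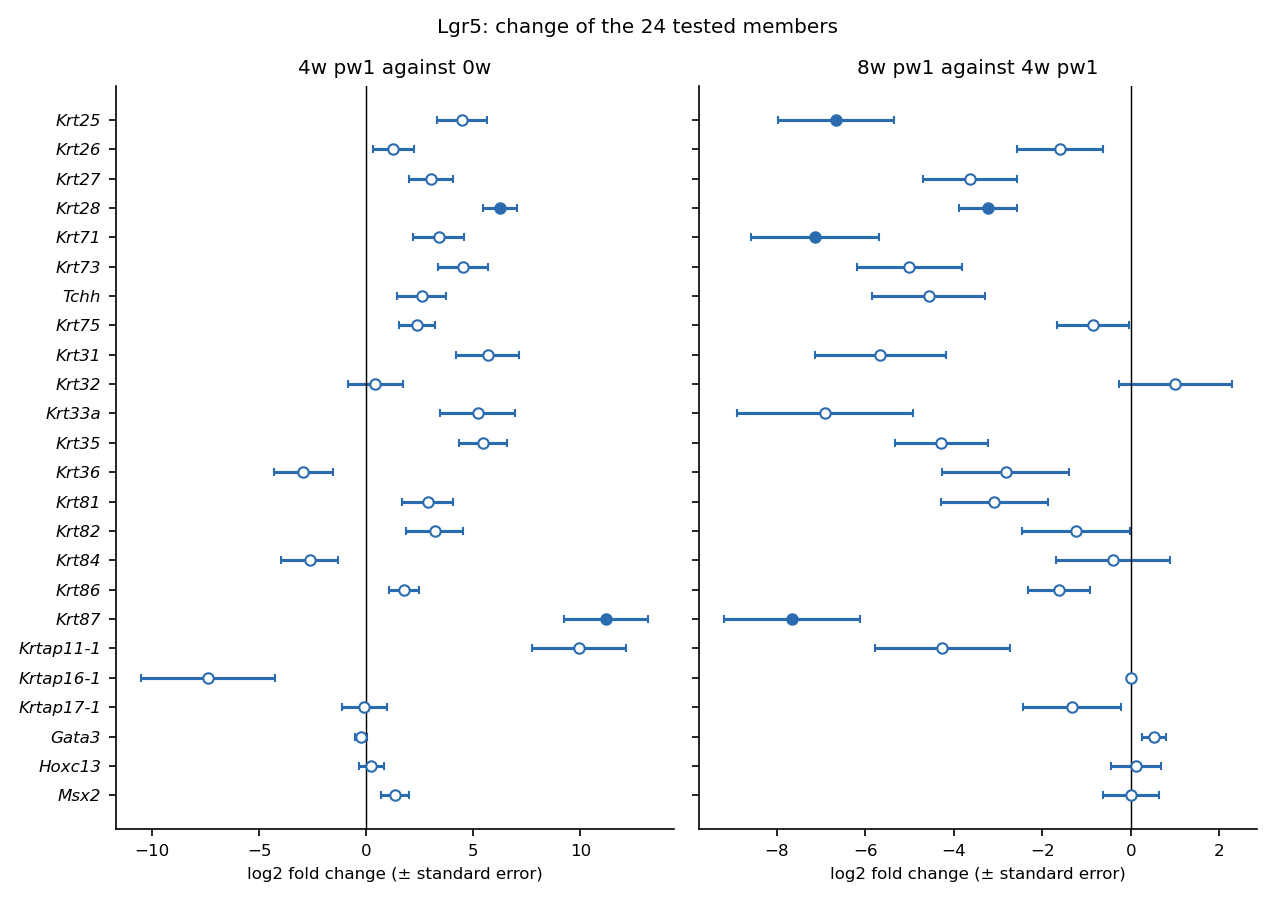
Log2 fold change with its standard error from edgeR for each of the 24 tested members in Lgr5 GL cells, at 4w pw1 against 0w and at 8w pw1 against 4w pw1, with filled dots for called members. Krt28 and Krt87 are called on the left and Krt25, Krt28, Krt71 and Krt87 on the right, and the values of Krt87, Krtap11-1 and Krtap16-1, which have groups at 0, depend on the prior count and are no measure of size.

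Promoter sequence is shown for 5 members: Krt25, Krt28 and Krt71, sheath keratins called both across the time course and between 4w and 8w pw1, and the pair Krt36 and Krt84, whose levels went their own way. RefSeq (GRCm38.p6) gave a promoter for 22 members, and each stretch below is the 250 bases before the start site, 5′ to 3′ on the minus strand, at chr11:99322952-99323201, chr11:99374904-99375153, chr15:101743098-101743347, chr11:100105627-100105876 and chr15:101532821-101533070 in this order. Capitals mark matches, on either strand, to 4 motifs that do not overlap one another in these stretches. TATAAA is the core of the TATA box. The letters CTTTGA are the core that LEF1 and TCF factors recognise. A core of GATA factors reads AGATAA, and the site of AP-1 is TGANTCA.
Krt25: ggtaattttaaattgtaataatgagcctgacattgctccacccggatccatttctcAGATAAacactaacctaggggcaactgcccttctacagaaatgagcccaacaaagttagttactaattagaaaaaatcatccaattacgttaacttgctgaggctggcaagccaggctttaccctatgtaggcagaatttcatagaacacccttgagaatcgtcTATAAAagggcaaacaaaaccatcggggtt
Krt28: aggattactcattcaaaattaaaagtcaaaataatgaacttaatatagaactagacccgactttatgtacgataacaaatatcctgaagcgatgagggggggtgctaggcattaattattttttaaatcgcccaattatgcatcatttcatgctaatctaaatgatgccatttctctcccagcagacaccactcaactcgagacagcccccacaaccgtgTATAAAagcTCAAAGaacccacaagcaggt
Krt71: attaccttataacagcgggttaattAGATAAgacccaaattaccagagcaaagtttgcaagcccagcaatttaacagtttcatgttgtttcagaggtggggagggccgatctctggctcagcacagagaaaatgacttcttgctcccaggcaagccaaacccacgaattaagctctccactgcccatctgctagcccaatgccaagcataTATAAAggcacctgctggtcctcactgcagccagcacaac
Krt36: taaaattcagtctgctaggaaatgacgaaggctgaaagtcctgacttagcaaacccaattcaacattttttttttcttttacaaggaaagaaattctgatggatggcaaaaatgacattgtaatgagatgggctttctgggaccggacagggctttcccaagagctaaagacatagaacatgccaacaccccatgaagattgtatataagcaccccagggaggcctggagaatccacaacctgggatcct
Krt84: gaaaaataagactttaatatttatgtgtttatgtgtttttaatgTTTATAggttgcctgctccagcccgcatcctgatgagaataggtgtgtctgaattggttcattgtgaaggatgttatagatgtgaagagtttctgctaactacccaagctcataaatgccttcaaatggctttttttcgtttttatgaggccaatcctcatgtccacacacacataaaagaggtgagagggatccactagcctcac

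TATAAA was found in 16 of the 22 member promoters, against 12.4% of 32851 promoters of the same length. In Krt25 and Krt28 it began 30 bases before the start and in Krt71 40, while in Krt84 the one match, on the other strand, lay 206 bases before the start. CTTTGA was found in 8 of 22 (13.8% of all), among them Krt28, Krt31 and Krtap11-1, and AGATAA in 5 of 22 (9.99% of all), namely Krt25, Krt27, Krt71, Krt73 and Tchh, all genes of the inner root sheath. TGANTCA was in none of the 22 (6.75% of all), and the Krt36 stretch held none of the 4. A match is a run of letters, not a bound site. The inner root sheath and shaft keratins lie in 2 clusters: Krt25 to Krt28, Krt31 to Krt36 and Krtap16-1 and Krtap17-1 on chromosome 11, and Krt71 to Krt75 and Krt81 to Krt87 on chromosome 15. In GRCm38 (GENCODE) Krt25 spans chr11:99315516-99322951, Krt28 chr11:99364872-99374903, Krt36 chr11:100102007-100105626, Krt87 chr15:101431038-101438804, Krt84 chr15:101525026-101532820 and Krt71 chr15:101733949-101743109, while Gata3 lies at chr2:9857078-9890034, all on the minus strand and all protein-coding. Gata3 overlaps 9230102O04Rik on its own strand and Gm13256 on the other, and the libraries keep no strand.

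At 8w pw1 several of these genes were back at low levels. Of the 24 tested members, 4 were called lower in Lgr5 GL cells at 8w pw1 by edgeR's adjusted p alone, against 0.0999% of all genes, and 9 of 24 had every 8w pw1 library below every 4w pw1 library, against 6.64%. Krt71 was at 10.2, 6.58 and 5.73 CPM at 8w pw1 (log2 fold change -7.14, SE 1.45, adjusted p = 0.044) and Krt25 at 4.42, 3.41 and 1.81 CPM (-6.66, SE 1.31, adjusted p = 0.0357). Both were thus back within or below their 0w range. Krt87 was at 0, 0 and 0.755 CPM, with 5 counts against 438 at 4w pw1, a pooled ratio of 232 (95% interval 98.7 to 719, adjusted p = 0.0468). Krt28 fell to 4.42, 11 and 4.83 CPM (log2 fold change -3.23, SE 0.66, adjusted p = 0.045) but remained above all 3 of its 0w libraries. Krt15 moved the other way, to 17600 to 20100 CPM at 8w pw1 (log2 fold change 2.51, SE 0.29, adjusted p = 0.00179). Each of these 4 member calls was lost without several single libraries, such as any 1 of 8w pw1.

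At 1w pw1 the summed level of the group was at its lowest, and Gata3 and Krt36 were called. The estimates of Krt81, Krt82, Krt86 and Krt87 against 0w were positive, and none of these was called. Gata3, a transcription factor needed for the inner root sheath, was at 135, 178 and 140 CPM at 0w and at 32.9, 59.4 and 39.2 CPM at 1w pw1, below every other library of either population (log2 fold change -1.79, SE 0.28, adjusted p = 0.0136). It was back at 105 to 191 CPM at 2w pw1 and stayed at 106 to 194 CPM from then on, the second wound included. Without library 1 of 1w pw1 its adjusted p was 0.0531. In this contrast 2 of 24 tested members were called, both lower, against 0.86% of all genes called lower, and 5 of 24 had all 3 libraries below 0w (Gata3, Hoxc13, Krt28, Krt75 and Krtap17-1), against 9.80%.

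Krt75 and Hoxc13 were also low at 1w pw1 but did not pass. Krt75 was at 53.3, 45.2 and 55.8 CPM at 0w and at 1.30, 10.8 and 5.06 CPM at 1w pw1 (log2 fold change -3.26, SE 0.95, adjusted p = 0.0874), then at 53.5, 88.0 and 644 CPM at 4w pw1 and at 109 to 176 CPM at 8w pw1. Hoxc13, which activates hair keratin genes directly, was at 52.5 to 74.2 CPM at 0w and at 2.94, 32.3 and 35.6 CPM at 1w pw1, and between 27.2 and 97.1 CPM from 2w pw1 on. Krtap17-1, a keratin-associated protein, was at 45.8, 15.1 and 9.65 CPM at 0w and at 0.326, 0.566 and 3.07 CPM at 1w pw1 (adjusted p = 0.102). In the same libraries the basal keratin Krt14 rose (log2 fold change 1.53, SE 0.29, adjusted p = 0.0197), and of the 6 bulge markers Krt15 (-1.16, SE 0.28, adjusted p = 0.0498) and Sox9 (-1.33, SE 0.30, adjusted p = 0.038) fell, with a summed bulge level of 4620 to 11700 CPM and no marker at 0. Their part in the hair gene levels was not tested.

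At 2w pw1, 8w pw1 and 1w pw2 against 0w, 0 members and 0 of the 18025 genes were called in Lgr5 GL cells by edgeR's quasi-likelihood test, with 5, 6 and 6 members at an unadjusted p under 0.05, beside 8.79, 5.94 and 6.42% of all genes. Over all 5 contrasts against 0w, which share the 0w libraries, 4 members' changes were called in total by this test, 13 members by the likelihood ratio test and 12 by DESeq2. Krt28 lay above all its 0w libraries at 2w pw1, 8w pw1 and 1w pw2, where its 0w libraries held 10 counts in total. At these time points 2, 4 and 3 of the 24 tested members were higher without overlap, against 7.44, 6.49 and 6.95% of all genes.

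Krt28 and Gata3 stood higher 1w after the second wound than 1w after the first. At 1w pw2 against 1w pw1, 2 of 24 tested members were called higher in Lgr5 GL cells, against 0.205% of all genes, and 8 of 24 had no overlap in that direction, against 13.7%. Krt28 was at 17, 7.66 and 6.02 CPM at 1w pw2 (log2 fold change 5.55, SE 0.88, adjusted p = 0.0111), with 193 counts against 2 at 1w pw1, a pooled ratio of 61.1 (95% interval 16.7 to 508). Gata3 was at 160, 143 and 164 CPM (log2 fold change 1.83, SE 0.28, adjusted p = 0.0111). Both calls were lost with surrogate variables (log2 fold change 5.96, adjusted p = 0.163 for Krt28, and 1.59, adjusted p = 0.17 for Gata3), and on the numbered libraries alone 0 members were called, with or without the replicate block. Every 1w pw2 library of both genes was above every 1w pw1 library. In the direct comparison of 1w pw2 with 8w pw1 edgeR's quasi-likelihood test called 0 members and 0 genes, with 3 members at an unadjusted p under 0.05, beside 3.83% of all genes. Krt75 (80.9, 30.7 and 146 CPM), Hoxc13 (87.0, 59.0 and 97.1 CPM) and Msx2 (23.3, 19.0 and 45.9 CPM) were above 1w pw1 in every library but not called (adjusted p = 0.0705, 0.163 and 0.177). Krt14 moved down in the same contrast (log2 fold change -1.85, SE 0.29, adjusted p = 0.0111).

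Of 25 further genes of hair differentiation, 24 were tested in Lgr5 GL cells, and 2, the homeodomain factors Cux1 and Dlx3, were called across the time course (both adjusted p = 0.00747), against 1.13% of all genes. Cux1 was at 78.7, 106 and 101 CPM at 0w and at 180, 485 and 425 CPM at 4w pw1 (log2 fold change 1.93, SE 0.37, adjusted p = 0.0465). Dlx3, which acts in the matrix and shaft, was at 0.326, 0.566 and 1.27 CPM at 1w pw1 and at 18.2, 14.5 and 21.1 CPM at 1w pw2 (log2 fold change 4.45, SE 0.83, adjusted p = 0.0285). The list had 1 of 24 genes called higher at 4w pw1, against 0.0499% of all genes, and in 1w pw2 against 1w pw1 it had 2 of 24, against 0.205%. S100a3, a hair cuticle protein, was at 16.3, 0 and 0.345 CPM at 0w and at 18.5, 81.7 and 73.3 CPM at 4w pw1, the same split between a and the others as the shaft keratins. In Lrig1 GL cells 16 of the 25 were tested and 0 called across the time course, against 1.63% of all genes. At single time points 1 of 16 was called at 8w pw1 (2.82% of all genes) and 1 of 16 at 1w pw2 (1.23%), as the Notch ligand Jag1 was higher at 8w pw1 (log2 fold change 2.23, SE 0.52, adjusted p = 0.0348) and its receptor Notch1 lower at 1w pw2 (-1.50, SE 0.36, adjusted p = 0.0486).

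Krt36 and Krt84 behaved apart from the other shaft keratins in both populations. In Lgr5 GL cells Krt36 was at 201, 0 and 151 CPM at 0w and at 0.326, 0 and 0.181 CPM at 1w pw1, with 1323 counts against 2, a pooled ratio of 565 (95% interval 156 to 4670, log2 fold change -9.05, SE 2.02, adjusted p = 0.0372). Library b of 0w, at 0, overlapped the wounded libraries, and the call was lost without library a of 0w. Krt84 was at 81.0, 2.70 and 47.6 CPM at 0w with the same low library, and at or below 14.6 CPM afterwards.

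The pair was the highest of all members in Lrig1 GL cells, in a few libraries. Krt36 was at 31.8, 2.03 and 0 CPM at 0w and at 634, 71.2 and 0.338 CPM at 2w pw1. It was at 20.4, 1220 and 21.9 CPM at 4w pw1, at 806, 356 and 0.536 CPM at 8w pw1, and at or below 0.949 CPM in all 6 libraries of 1w pw1 and 1w pw2. Krt84 followed library by library, with 739, 55.4 and 1.01 CPM at 2w pw1, 0.996, 740 and 3.57 CPM at 4w pw1 and 564, 218 and 0 CPM at 8w pw1. High and low libraries thus stood side by side within each of the 3 time points, and every 1w library of either wound was low. Neither was called across the time course (adjusted p = 0.0749 and 0.112). Across the 18 libraries Krt36 and Krt84 had a Pearson's r of 0.92 here, and of 0.82 in the other population, on the log2(CPM + 1) scale, a description over libraries that share time points. The summed markers of differentiated interfollicular epidermis were 11600, 22400, 9350 and 7520 CPM in the 4 Lrig1 GL libraries with Krt36 over 300 CPM, and 32000 CPM in library a of 4w pw1, with Krt36 at 20.4 CPM.

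In Lrig1 GL cells 15 of the 23 listed members were tested and 0 were called across the time course by edgeR's quasi-likelihood test, against 1.63% of 14306 genes, with 6 at an unadjusted p under 0.05, beside 20.5% of all genes. The likelihood ratio test and DESeq2 each called 6, Krt25, Krt36, Krt71, Krt73, Krt84 and Krtap17-1, and with 5 surrogate variables Krt36 alone was called (adjusted p = 0.0155) among 8 genes. That fit gave Krt36 log2 fold changes of 30.75 to 40.7 over 0w at all 5 time points, 1w pw1 and 1w pw2 included, where its CPM was at or near 0, so these are no measure of size and the call is not read as a change. Without surrogate variables, edgeR's quasi-likelihood test called none of the 15 at any single time point or in any other contrast. Over the 5 contrasts against 0w the likelihood ratio test called 6 and DESeq2 7. Against 0w, 7, 8, 3, 9 and 5 members had an unadjusted p under 0.05 at 1w, 2w, 4w and 8w pw1 and 1w pw2, where 11, 10.5, 8.37, 22.9 and 18.5% of all genes had one and 0.217, 0, 0.0419, 2.82 and 1.23% were called. In 1w pw2 against 1w pw1, 8w pw1 against 4w pw1 and 1w pw2 against 8w pw1 the unadjusted counts were 0, 1 and 3, where 8.87, 22.1 and 5.72% of all genes had such a p and 0, 3.72 and 0.00699% were called, and over these 3 contrasts the likelihood ratio test called 0 members and DESeq2 1.

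For Krt71 and Krt25 a single library held most of the level in Lrig1 GL cells. Library 3 of 0w had 250 CPM of Krt71 and 110 CPM of Krt25, against 0 to 3.25 and 2.05 to 4.47 CPM in libraries 1 and 2, and it gave 73.4% of the summed Krt71 CPM and 64.5% of the summed Krt25 CPM of all 18 libraries. For Krt26, Krt27, Krt28, Krt72 and Krt73 the highest library gave 14.9 to 35.0%. Krtap17-1 was at 43.1, 95.4 and 11.5 CPM at 0w and at or below 28.3 CPM later (adjusted p across the time course 0.0957). Gata3 stayed between 61.7 and 246 CPM in all 18 libraries (adjusted p = 0.512). Tchh was at 21.0, 6.90 and 2.56 CPM at 0w and at 33.0, 121 and 78.3 CPM at 1w pw2 without overlap (log2 fold change 2.92, SE 0.94, adjusted p = 0.118). It was the 1 of 15 tested members higher without overlap in that contrast, against 13.9% of all genes.

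Whether a change from 0w differed between the populations was tested in 1 model of all 36 libraries over the genes listed in both tables, where 20 of the 23 shared members were among the 16153 genes tested. By edgeR's adjusted p for the 5 differences jointly, 4 members were called, Krt28 (adjusted p = 0.0177), Krt36 (0.0347), Krt87 (0.0349) and Tchh (0.0454), against 3.08% of all genes, and Krt84 (0.0502) and Krtap11-1 (0.0517) lay just past the threshold. Krt26, Krt35, Krt83, Krt87 and Krtap11-1 had not passed the filter in Lrig1 GL cells alone. Since the filter can keep a gene through the group where it is high, the 20 do not stand for the 23. Krt87 and Krtap11-1 also had no count in any Lgr5 GL library of 0w, so the size of their differences depends on the prior count. At single time points Krt28 was called at 4w pw1, where its change was 7.60 higher in Lgr5 GL cells on the log2 scale (SE 1.52, adjusted p = 0.0405, against 0.0929% of all genes), and at 8w pw1, 7.34 higher (SE 1.6, adjusted p = 0.0275). Krt36 was called at 8w pw1 in the other direction, with a difference of -10.9 (SE 2.76, adjusted p = 0.0483), and 1.11% of all genes were called there. The Krt28 call across time points held without any single library, and no member was called with 9 surrogate variables. Each population comes from its own mice and its own table, so population and table cannot be told apart.

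**Figure D5:**
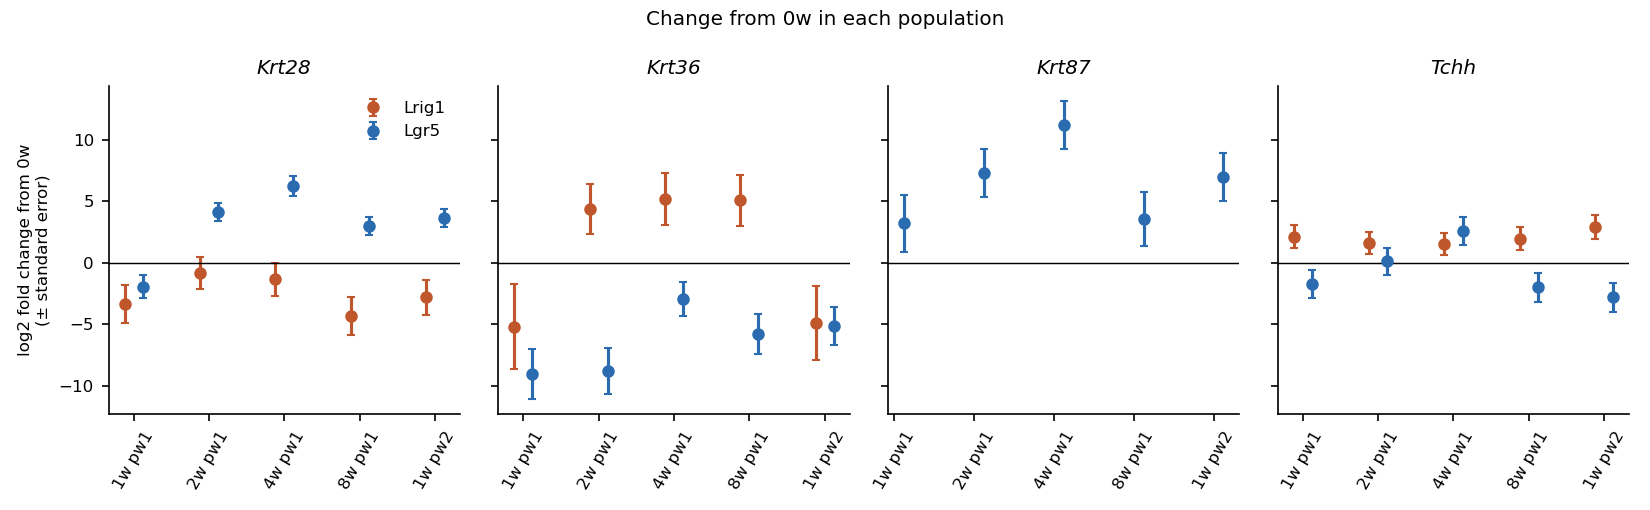
Log2 fold change from 0w with its standard error at each later time point, fitted by edgeR within each population, for the 4 members whose change differed between populations. Krt28 lies above 0 from 2w pw1 on in Lgr5 GL and below 0 in Lrig1 GL cells, Krt36 points up at 2w to 8w pw1 in Lrig1 GL and down in Lgr5 GL cells, and Krt87, which did not pass the filter in Lrig1 GL cells and is at 0 in Lgr5 GL cells at 0w, has values that depend on the prior count.

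Before injury 1 of the 20 tested members was called between the populations, a share near that of all genes. Msx2, a homeodomain factor of the matrix and shaft, was at 32.0, 18.9 and 2.41 CPM in Lgr5 GL and at 1.54, 0 and 1.92 CPM in Lrig1 GL cells at 0w (log2 difference 4.33, SE 1.2, adjusted p = 0.0445 by edgeR), and 2.90% of all genes were called. Every Lgr5 GL library was above every Lrig1 GL library, but barely, as the nearest were at 2.41 and 1.92 CPM, the latter with 3 counts. These levels were scaled within each table. The call was lost without any filter on low counts and without many single libraries. Krt28 lay the other way, at 24.1, 0 and 12.2 CPM in Lrig1 GL cells at 0w, without being called (log2 difference -3.50, SE 1.08, adjusted p = 0.0738).

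Several members varied together across libraries in Lgr5 GL cells. Over its 18 libraries Krt25 and Krt71 had a Pearson's r of 0.93 and Krt28 and Krt35 of 0.88 on the log2(CPM + 1) scale. The median over all pairs of tested members was 0.35. Among 12115 genes with a mean of at least 5 CPM, those with the pattern most like the mean of Krt25, Krt27, Krt28, Krt71 and Krt73 were Krt35 (r = 0.90) and Mat2a (0.85), with Gm45555, S100a3 and D030028A08Rik at 0.84. Those most like the mean of the shaft keratins Krt31, Krt35, Krt83 and Krt87 (12117 genes ranked) were Krtap11-1 (0.91), the unnamed gene Gm49425 (0.90) and Krt27 (0.84). For Krt36 and Krt84 the nearest genes were Cbr4 (0.73) in Lgr5 GL and Poll (0.77) in Lrig1 GL cells. These are descriptions over libraries that share time points.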

How the data were processed

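Small numbers of tdTomato+ tail epidermal cells were profiled by full-length RNA-seq in 36 libraries (18 per population, 3 per time point). The authors trimmed reads with Trim Galore 0.5.0, aligned them with HISAT2 to mm10 (GRCm38) and counted exonic reads per gene name with featureCounts on GENCODE M20, per the study's methods and the submitters' processing notes. The deposited values are raw read counts per gene in 1 table per population, without molecular identifiers, so intervals and floors cover counting error only. The study itself fitted surrogate variables, which are given here as an alternative.

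The members and the gene lists were chosen with earlier results of these data known. Genes were named when called in any test, when among the 10 highest members of a population or the top of their class, and, for other lists, when called or highest, beside a few named after their values were seen (Krt33b, Krt83, Krtap7-1, S100a3, Lef1). Each population was fitted with edgeR 4.0.16 (R 4.3.3), with TMM scaling, filterByExpr by group (minimum count 10), a prior count of 0.125 and the quasi-likelihood test, with adjustment over all genes tested. Changes against 0w were called at an adjusted p of 0.05 with a log2 fold change over 1, other contrasts by the adjusted p alone. The differences between populations came from 1 model of all 36 libraries. CPM are counts relative to TMM-scaled totals, scaled within each table, so levels set across the populations also carry that scaling. The floor for groups at 0 was 3 counts in each library, averaged as CPM, with 95% intervals for ratios of pooled counts. The scripts were tested on simulated data. Alternatives were the likelihood ratio test, DESeq2 1.42.0, another scaling, no filter, removal of Gm12415 from totals, surrogate variables (sva 3.50.0), omission of each library, and a replicate block. After the data were examined, the fits without the 4w pw1 or the 1w pw1 time point and those with numbered libraries alone were added. Of the 36 pairs of libraries within a group none was identical, and the smallest chi-square per gene was 8.95. The count columns of 21 libraries carry no number that matches a labelled replicate, leaving 15 numbered. Promoters came from RefSeq on GRCm38.p6, and exon lengths and shared 50-base stretches from a GENCODE annotation of GRCm38.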

Additional observations from a re-analysis of the deposited data

Results flagged for a closer look

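The change from 0w differed between Lrig1 and Lgr5 GL cells for 4 members by edgeR's joint test of the 5 time points, with adjusted p-values of 0.0177 for Krt28, 0.0347 for Krt36, 0.0349 for Krt87 and 0.0454 for Tchh. At single time points the difference in change was called for Krt28 at 4w pw1 (adjusted p = 0.0405) and at 8w pw1 (adjusted p = 0.0275), and for Krt36 at 8w pw1 (adjusted p = 0.0483). Within its own population Krt28 was called against 0w at 4w pw1 in Lgr5 GL cells, and at no time point in Lrig1 GL cells. Krt36 was high at 8w pw1 in 2 of the 3 Lrig1 GL libraries and at most 4.98 CPM in the 3 Lgr5 GL libraries of that time point. For Krt87 and Tchh the difference was called in the joint test only. Krt87 had not passed the filter on low counts in Lrig1 GL cells alone and had no count at 0w in Lgr5 GL cells.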

How the results depend on the processing

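No called value changed its sign under any alternative. Except for surrogate variables in the time courses, the share of all genes called under an alternative was not computed. The counts of members below thus have no background. Among all single-contrast values of the tested members, called or not, surrogate variables gave the opposite sign for 19 of 192 in Lgr5 GL and 18 of 120 in Lrig1 GL cells. For the 10 members called across the Lgr5 time course, the likelihood ratio test gave 17 and DESeq2 15, surrogate variables 0 and the fit without 4w pw1 3, with 5 to 17 when single libraries were left out. For the 4 called against 0w these were 13, 12 and 0, and 2 to 5. For the 5 called in other Lgr5 contrasts they were 11, 13 and 0, and 2 to 5. In Lrig1 GL cells, where 0 were called, the likelihood ratio test gave 6, DESeq2 6 and surrogate variables 1 across the time course (0 to 1 without single libraries), 6, 7 and 1 against 0w (0 to 2), and 0, 1 and 0 in other contrasts (0 to 0). For the 1 member called between populations at 0w the counts were 3 and 2 by the likelihood ratio test and DESeq2, 0 without a filter and 0 with surrogate variables (0 to 1), and for the 4 whose change differed 8, 7 and 0 (1 to 6). With Gm12415 out of the totals the mean summed level in Lgr5 GL cells was 736 CPM at 2w pw1, 768 CPM at 8w pw1 and 689 CPM at 1w pw2, up from 494, 549 and 461 CPM. These CPM are relative to raw totals less Gm12415, without TMM scaling, so the smaller totals raise them by calculation.

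With the replicate block, possible only on the numbered libraries (1w pw1 and 1w pw2 in Lgr5 GL cells), 0 members were called against 2 in the full fit of that contrast, and 0 also on these libraries without the block. Same-numbered libraries had correlations of deviations of -0.07 to 0.13 over 12 pairs, so the numbers were not taken to pair them.

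Of 505 values of single genes under other settings, 377 kept their status as called or not called, 42 lost a call and 86 gained one. With single libraries left out, 1367 of 1548 kept their status, 153 lost a call and 28 gained one. These values include tests that were not called in the main fit, so the kept values are not a share of the calls. At the shallowest library, 3 counts correspond to 3.39 CPM in Lrig1 GL and 2.92 CPM in Lgr5 GL cells, so lower levels are not resolved in single libraries.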

Other observations

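Genes outside the list followed the sheath and shaft keratins across the 18 Lgr5 GL libraries. Prr9, a proline-rich protein gene, had a Pearson's r of 0.80 with the mean of the 5 sheath keratins and of 0.79 with that of the 4 shaft keratins. Myb stood at 0.79 with the sheath pattern, and Dlx3, a homeodomain factor of the hair matrix, at 0.73 with the shaft pattern. In Lrig1 GL cells the genes next nearest to Krt36 and Krt84 after Poll were Ndufaf7 (0.74) and Selenbp1 (0.68). Lef1, the Wnt effector of the hair matrix, was at 6.81, 45.3 and 69.9 CPM in libraries a, b and c of 4w pw1 in Lgr5 GL cells, lowest in library a as the shaft keratins were. It was not called across the time course and was named after its values were seen.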
